A study of Homo sapiens with 12 samples.

Results

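The 10 genes described here are those by which astrocytes, neural progenitors and glioma cells are usually recognised: GFAP, VIM, NES, S100B, SOX2, SOX9, ALDH1L1, AQP4, SLC1A3 and CD44. They were taken by name, through their Ensembl IDs, from the 60675 gene IDs of a count table. They were measured by RNA sequencing in SW1783, an established human astrocytoma cell line, in 12 libraries that fall into 4 groups of 3. Vehicle cells were given solvent alone, 2% DMSO in PBS. The other 3 groups were given Aconitum carmichaeli Debeaux (ACD), extracted in water, at 20, 100 or 500 µg/mL. These were named the low, medium and high dose. By the methods of the study the dried extract was taken up in that same solvent, so DMSO was not confined to the vehicle group. What diluted it for the lower doses is not stated. The 2% refers to the solution added, which the medium in the wells diluted. All groups were collected at 24 h. The titles, the treatment labels and the methods of the study name ACD, whereas the treatment protocol attached to the same samples describes Poria cocos. The identity of the extract thus rests on the titles, the treatment labels and those methods. The labels do not say whether the 3 libraries of a group came from separate cultures, so the p-values given here measure the spread between these libraries, which may be technical. All cells were of 1 line, and every group, vehicle included, was grown in the same medium with serum.

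Total counts lay between 18863863 and 24200576 per library. Mitochondrial rRNAs took a share of the counts that differed between the groups, from 0.912% to 0.960% with vehicle to 3.01% to 3.33% with the low dose, 7.67% to 8.05% with the medium dose and 5.76% to 6.06% with the high dose. Leaving mitochondrial genes out of the size factors changed no call on the 10 genes. Normalised counts are counts divided by the DESeq2 size factor of the library.

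Astrocytes are the glial cells that take up transmitter, buffer water and potassium, and support neurons. GFAP (glial fibrillary acidic protein), VIM (vimentin) and NES (nestin) encode intermediate filament proteins, of which nestin is typical of neural progenitors and GFAP of differentiated and reactive astrocytes. SLC1A3 encodes GLAST (EAAT1), a sodium-coupled glutamate transporter of the astrocyte membrane that also marks radial glia, AQP4 the water channel of astrocyte endfeet, ALDH1L1 a folate enzyme widely used as an astrocyte marker, and S100B a calcium-binding protein of glia. SOX9 is a transcription factor of the switch to glia, SOX2 a transcription factor that keeps neural stem cells undifferentiated, and CD44 the cell surface receptor for hyaluronan, which is abundant in gliomas of the mesenchymal state.

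Of the 10 genes, 5 were detected in SW1783 cells and 5 were not. Detected means a mean of at least 10 normalised counts over the 12 libraries, which 15282 genes (25.2% of the IDs in the table) reached. VIM, CD44, SOX9, SLC1A3 and NES passed, each in every group. GFAP, S100B, SOX2, ALDH1L1 and AQP4 did not. Thus VIM and CD44, which many mesenchymal cells share, were abundant, whereas GFAP, S100B, ALDH1L1 and AQP4 were at or near 0. The astrocyte transporter gene SLC1A3 was detected, as were 10 of 20 other genes enriched in mature astrocytes, described below. SOX2 was near 0 as well, so the line carried 1 of the 2 SOX factors asked for.

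GFAP (ENSG00000131095, chromosome 17, 44903159 to 44916937, minus strand; coordinates here are GRCh38, 1-based) had 26 counts in all 12 libraries together. The 3 vehicle libraries had 1, 6 and 2 counts, those of the low dose 3, 1 and 1, those of the medium dose 4, 1 and 3, and the high dose libraries 1, 0 and 3. These counts overlapped between all groups, and the likelihood ratio test of DESeq2 did not call a difference among the groups (adjusted p 0.889). At such counts neither a fall nor a rise of GFAP was detectable. GFAP also shares 19.9% of its exon bases with CCDC103 on the opposite strand, which had 13.5 to 30.8 counts per library. Since no source says whether strand was used in counting, even the few reads given to GFAP are uncertain.

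S100B (ENSG00000160307, chromosome 21, 46598604 to 46605208, minus strand) had 21 counts in all. Its counts were 5, 2 and 0 with vehicle, 1, 2 and 2 with the low dose, 2, 3 and 3 with the medium dose and 0, 0 and 1 with the high dose. The high dose libraries were the lowest as a group, but their range overlapped that of the vehicle libraries, and the groups were not shown to differ (DESeq2 likelihood ratio test, adjusted p 0.496). SOX2 (ENSG00000181449, chromosome 3, 181711925 to 181714436, plus strand) had 7 counts in all, no more than 2 in a library, and was at 0 in 7 libraries. ALDH1L1 (ENSG00000144908, chromosome 3, 126103562 to 126197994, minus strand) had 6 counts, no more than 2 in a library, and was at 0 in 8. AQP4 (ENSG00000171885, chromosome 18, 26852043 to 26865771, minus strand) had 0 counts in all 12 libraries. A count of 0 allows up to 3 counts in a library, which is 0.124 to 0.159 CPM (the count relative to the library total) at these depths, and this limit covers counting error only.

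The detected genes spanned a wide range of abundance. To compare genes, the count was divided by the library total, as CPM, and by the length of the gene in kilobases of exon. On this scale VIM stood at 843 ± 37.6 (SD, n = 3) in the vehicle group, CD44 at 281 ± 3.16, SOX9 at 18.0 ± 0.626, NES at 1.90 ± 0.1098 and SLC1A3 at 1.61 ± 0.0483. No neighbours in this order overlapped in the vehicle libraries. VIM ranked 24th and CD44 75th from the top among the 15125 detected genes with a length, SOX9 ranked 2326th, NES 10097th and SLC1A3 10552nd. SLC1A3 has many annotated exons, 21227 bases in all against 4466 in its longest coding transcript. When the longest coding transcript gave the length, SLC1A3 stood at 7.63 ± 0.229 and NES at 1.90 ± 0.1098 CPM per kilobase, so the order of these 2 genes turned with the choice of length. On that length VIM ranked 14th, CD44 82nd, SOX9 3663rd, SLC1A3 6846th and NES 10925th among the same genes, so VIM, CD44 and SOX9 kept their order among the 5, whereas SOX9 stood lower and SLC1A3 higher among all genes.

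**Figure D1:**
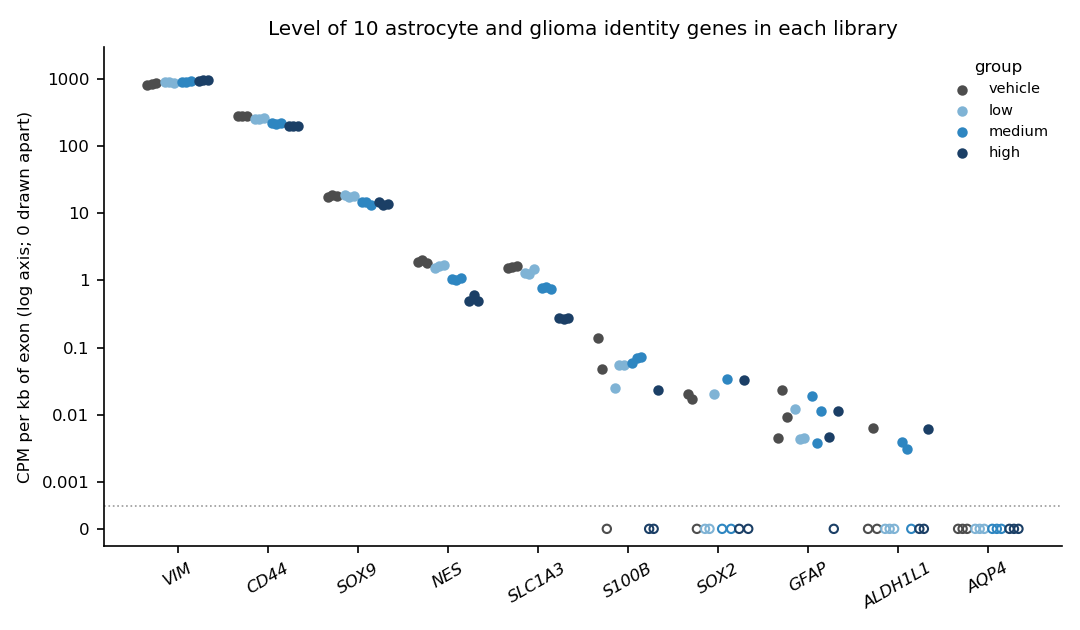
Level of the 10 genes in each of the 12 libraries, as CPM per kilobase of exon on a log axis; each point is a library, coloured by group, and open circles under the dotted line are libraries with 0 counts. VIM and CD44 lie above 100, SOX9 between 10 and 100, and NES and SLC1A3 below 3 with a step down at each dose. The 5 genes that were not detected lie below these, with AQP4 at 0 throughout. The nearest points are S100B at 0.140 (vehicle replicate 1) and SLC1A3 at 0.263 (high dose replicate 2).

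The sequences just before the transcription starts of 4 detected genes, SLC1A3, NES, CD44 and VIM, are shown as a description. SOX9 is not among them. A link between these letters and the changes under the extract was not tested. Each is the 250 bases upstream of a start, from RefSeq (GRCh38.p14), written 5′ to 3′ on the strand of the gene; 7 of the 10 genes had an entry and 4 are printed. SLC1A3 has several annotated starts, and the one of its canonical transcript is used. Capitals mark a match to any of 5 short motifs, each searched on both strands, with matches to different motifs free to overlap. The GC box was searched as GGGCGG, which factors of the Sp family bind. The CCAAT box was searched by its own letters. The TATA box of the core promoter was searched as TATAAA. The site of AP-1 factors was searched as TGANTCA with any base at N. The joint site of C/EBP and ATF factors was searched as TGATGNAA with any base at N.
SLC1A3, chr5:36606356-36606605, plus strand: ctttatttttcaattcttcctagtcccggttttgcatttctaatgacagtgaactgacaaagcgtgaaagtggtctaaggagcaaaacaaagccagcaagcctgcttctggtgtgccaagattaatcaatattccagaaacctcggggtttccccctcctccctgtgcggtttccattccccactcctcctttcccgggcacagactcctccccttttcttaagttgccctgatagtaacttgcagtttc
NES, chr1:156677408-156677657, minus strand: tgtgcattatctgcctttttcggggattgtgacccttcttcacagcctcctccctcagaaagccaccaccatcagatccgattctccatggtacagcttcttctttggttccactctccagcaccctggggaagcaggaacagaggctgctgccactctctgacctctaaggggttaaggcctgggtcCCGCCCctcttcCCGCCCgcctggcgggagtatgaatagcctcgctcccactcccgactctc
CD44, chr11:35138921-35139170, plus strand: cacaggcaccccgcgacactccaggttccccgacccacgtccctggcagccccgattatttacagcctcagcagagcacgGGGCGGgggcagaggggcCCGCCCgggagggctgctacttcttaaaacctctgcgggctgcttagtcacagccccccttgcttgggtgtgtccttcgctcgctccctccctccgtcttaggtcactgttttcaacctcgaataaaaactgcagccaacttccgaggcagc
VIM, chr10:17227991-17228240, plus strand: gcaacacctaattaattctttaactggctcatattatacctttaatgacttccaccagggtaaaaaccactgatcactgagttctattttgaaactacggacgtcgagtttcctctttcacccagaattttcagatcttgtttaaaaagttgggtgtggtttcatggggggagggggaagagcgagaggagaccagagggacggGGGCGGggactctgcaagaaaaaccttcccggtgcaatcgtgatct

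The NES and CD44 windows each held 2 GC boxes, the VIM window held 1, and the SLC1A3 window at its canonical start held none of the 5 motifs. Of the other SLC1A3 starts, which are not printed, the window of the one at -10018 bases from the canonical start held 1 GC box and 1 C/EBP-ATF site, and that of the one at 348 bases held 2 AP-1 sites and 1 CCAAT box. A GC box was present in 42.6% of 35116 annotated windows of the same length, a CCAAT box in 32.0%, a TATA box in 10.7%, an AP-1 site in 6.57% and a C/EBP-ATF site in 3.14%. The GC content was 47.2% for the canonical SLC1A3 window, 58% for NES, 62.4% for CD44 and 46% for VIM, and the median over all windows was 58%. A match describes the letters of the window and not a bound site.

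Next, the effect of the extract was examined. With the high dose 2 of the 10 genes, SLC1A3 and NES, were differentially expressed genes (DEGs) against vehicle, both lower. To be called so, a gene needed a fold change over 1.5 in either direction and an adjusted p (Benjamini-Hochberg) under 0.05 in the DESeq2 Wald test. Of the 10 genes, 7 were tested with the high dose, 5 with the medium dose and 4 with the low dose. Of all genes tested with the high dose 18.2% were DEGs, 9.57% lower and 8.66% higher. With the medium dose the same 2 genes were DEGs and lower, where 3.81% of the genes tested were DEGs and 1.48% were lower DEGs. With the low dose none of the 10 was a DEG, where 0.118% of the genes tested were. At that dose 3 of them had an unadjusted p under 0.05 in DESeq2, and the edgeR quasi-likelihood test called 0. The share of all genes at that unadjusted p is not given, here or for the lists below, so such counts are not set against other genes. By the adjusted p alone, with no minimum fold, all 5 detected genes differed from vehicle with the high dose, where 46.5% of genes did, and all 5 with the medium dose, where 29.5% of genes did. The same rule called 2 of them, VIM and CD44, with the low dose, where 3.29% of genes passed. The likelihood ratio test found all 5 to differ among the 4 groups, as did 45.8% of genes. These shares are over all genes tested. Their means went down to 1.72 normalised counts with the high dose and 18.3 with the medium dose. None is a share among genes with counts like those of the 5. The median log2 fold change over the 15282 detected genes was 0.0023 with the high dose, -0.00083 with the medium dose and 0.0032 with the low dose. The size factors centre these values near 0 by construction, so a shift common to most genes would not be seen. In bulk RNA, fewer expressing cells and less RNA per cell cannot be told apart, which applies to each difference reported.

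SLC1A3 (ENSG00000079215, chromosome 5, 36596588 to 36688334, plus strand), the glutamate transporter gene, had the largest fold change of the 5 and was lower with the extract. Its normalised counts were 671, 685 and 714 with vehicle, 579, 554 and 641 with the low dose, 358, 377 and 341 with the medium dose and 127, 122 and 130 with the high dose. The 4 groups did not overlap, and each higher dose lay below the one before it. With 3 libraries in a group, ranges can part without a called difference. The share of all genes whose groups did not overlap is not given, here or for the genes below. Against vehicle the log2 fold change was -2.45 (SE 0.107, adjusted p 3.89e-115 by DESeq2) with the high dose, which left 18.3% of the vehicle level (95% confidence interval 15.8% to 21.1%). With the medium dose it was -0.94 (SE 0.0887, adjusted p 1.36e-24 by DESeq2), which left 52.0% (46.1% to 58.7%). With the low dose the value was -0.22 (SE 0.0843, adjusted p 0.141 by DESeq2), and the test did not call it. The edgeR quasi-likelihood test gave the low dose value an adjusted p of 0.0369, with the fold still short of the threshold, and the range over the 18 of 22 alternatives that gave an adjusted p was 0.0369 to 1.

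The steps between doses were tested as well. Set against the medium dose, SLC1A3 was lower with the high dose by a log2 fold change of -1.51 (SE 0.111, adjusted p 2.12e-40 by DESeq2), and set against the low dose it was lower with the medium dose by -0.72 (SE 0.0898, adjusted p 5.87e-14 by DESeq2), and it was a DEG in both. Of all genes tested, 10.2% were DEGs between the high and medium doses and 1.94% between the medium and low doses.

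NES (ENSG00000132688, chromosome 1, 156668763 to 156677407, minus strand), the progenitor filament gene, fell with the medium and high doses. The vehicle libraries had 212, 227 and 204 normalised counts, those of the low dose 176, 187 and 196, those of the medium dose 130, 124 and 132 and the high dose libraries 60.2, 73.0 and 60.8. No 2 groups overlapped. The log2 fold change against vehicle was -1.72 with the high dose (SE 0.160, adjusted p 6.19e-26 by DESeq2), with 30.3% of the vehicle level left (95% confidence interval 24.3% to 37.6%). It was -0.74 with the medium dose (SE 0.143, adjusted p 2.91e-06 by DESeq2), with 59.9% left (49.3% to 72.7%). With the low dose NES stood at 86.7% of vehicle (72.0% to 104%) and had no adjusted p, because DESeq2 set aside genes with a mean under 263 normalised counts in that comparison; the edgeR quasi-likelihood test gave it an adjusted p of 0.207. Between the high and medium doses the log2 fold change was -0.99 (SE 0.167, adjusted p 2.75e-08 by DESeq2), a DEG. Between the medium and low doses it was -0.53 (SE 0.145, adjusted p 0.00240 by DESeq2), short of the fold threshold. NES and SLC1A3 were the members with the lowest levels among those detected, and the difference between their falls was not tested.

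CD44 (ENSG00000026508, chromosome 11, 35138882 to 35232402, plus strand), the hyaluronan receptor gene, fell by a smaller share at every dose. Its normalised counts were 57539, 56006 and 57180 with vehicle, 53877, 52393 and 54401 with the low dose, 47829, 46765 and 47771 with the medium dose and 44276, 43385 and 43372 with the high dose. The groups did not overlap. With the high dose 76.7% of the vehicle level was left (95% confidence interval 74.7% to 78.9%; log2 fold change -0.38, SE 0.0200, adjusted p 1.43e-79 by DESeq2). With the medium dose it was 83.4% (81.2% to 85.7%, adjusted p 2.74e-37 by DESeq2) and with the low dose 94.1% (91.6% to 96.7%, adjusted p 0.00106 by DESeq2). The steps from low to medium and from medium to high passed the test too (log2 fold changes -0.17 and -0.12, adjusted p 1.68e-16 and 1.88e-08 by DESeq2). None of these reached the 1.5-fold threshold. CD44 is known for its alternatively spliced forms, which counts per gene do not resolve.

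VIM (ENSG00000026025, chromosome 10, 17228241 to 17237593, plus strand), the most abundant of the 10, was the 1 detected gene that rose. Its normalised counts were 84469, 88237 and 92531 with vehicle, 96651, 96636 and 93058 with the low dose, 101693, 102620 and 106936 with the medium dose and 107290, 107577 and 109276 with the high dose. The ranges did not overlap, although the lowest low dose library stood just above the highest vehicle library. VIM was at 122% of vehicle with the high dose (95% confidence interval 118% to 127%; log2 fold change 0.29, SE 0.0286, adjusted p 6.12e-23 by DESeq2), 117% with the medium dose (113% to 122%, adjusted p 2.64e-14 by DESeq2) and 108% with the low dose (104% to 112%, adjusted p 0.00687 by DESeq2). The difference between the high and medium doses was 0.06 on the log2 scale and was not called (adjusted p 0.0903 by DESeq2). VIM shares 24.6% of its exon bases with VIM-AS1 on the opposite strand. VIM-AS1 held 11 to 32 counts per library, 0.0214% of those of VIM over all libraries, and its log2 fold change with the high dose was -1.18.

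SOX9 (ENSG00000125398, chromosome 17, 72121020 to 72126416, plus strand), the glial transcription factor gene, was lower with the medium and high doses, and its low dose libraries overlapped those of vehicle. The vehicle libraries had 1381, 1473 and 1448 normalised counts and the low dose libraries 1528, 1402 and 1450, so these 2 groups overlapped (log2 fold change 0.03, SE 0.0572, adjusted p 0.902 by DESeq2). The medium dose libraries had 1253, 1265 and 1153 and the high dose libraries 1278, 1154 and 1185, below every vehicle library but overlapping each other. SOX9 stood at 85.3% of vehicle with the medium dose (95% confidence interval 78.8% to 92.3%, adjusted p 0.000541 by DESeq2) and at 83.9% with the high dose (77.6% to 90.8%, adjusted p 4.69e-05 by DESeq2). Between the high and medium doses the ratio was 98.4% (90.9% to 107%, adjusted p 0.805 by DESeq2). The step in SOX9 lay between the low and medium doses, where the log2 fold change was -0.26 (SE 0.0580, adjusted p 0.000156 by DESeq2).

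**Figure D2:**
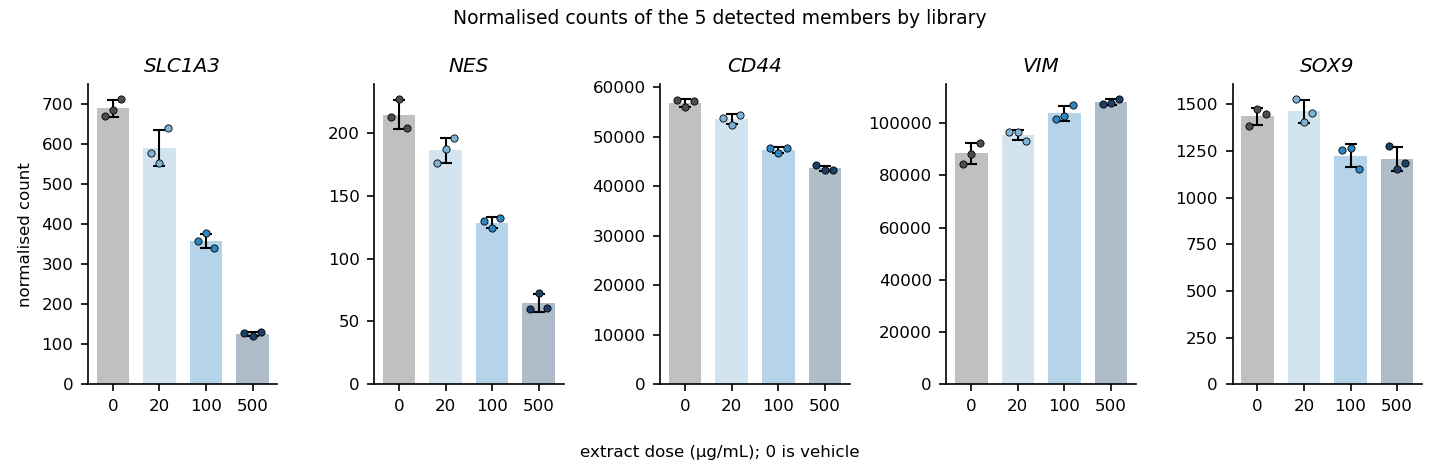
Normalised counts of the 5 detected genes by extract dose (µg/mL, 0 being vehicle); bars are means, error bars the SD over n = 3 libraries, and points the libraries. SLC1A3 falls from 690 ± 21.8 with vehicle to 126 ± 4.28 with the high dose and NES from 214 ± 11.6 to 64.7 ± 7.21, whereas VIM rises from 88412 ± 4033 to 108048 ± 1073.

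**Figure D3:**
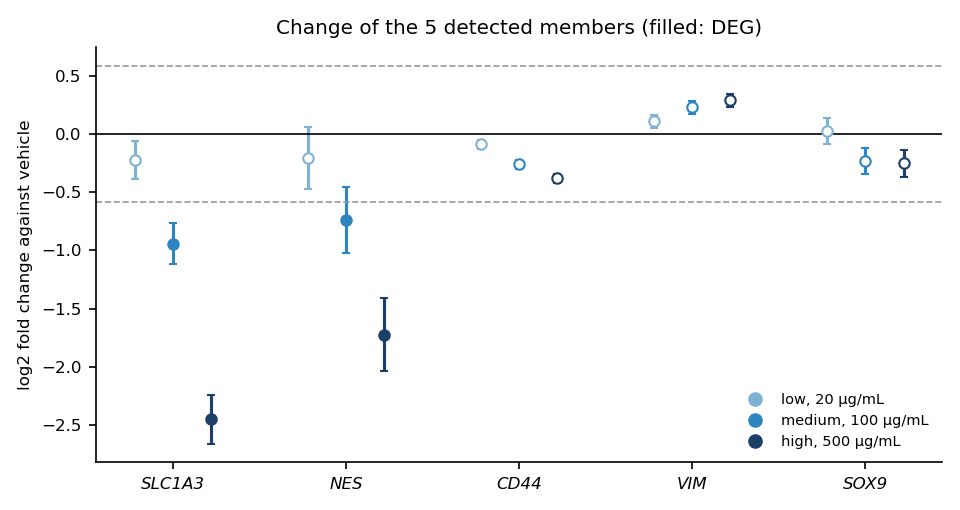
Log2 fold change against vehicle of the 5 detected genes at the low, medium and high doses (20, 100 and 500 µg/mL), with 95% confidence intervals; filled points are DEGs and dashed lines mark a 1.5-fold change. Only SLC1A3 and NES pass the lines, at the medium and high doses, while CD44 and SOX9 lie between the lower line and 0 with the high dose and VIM between 0 and the upper line.

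The genes whose profile over the 12 libraries came closest to each detected gene were found by the root mean square difference of log2(normalised count + 1), centred on the vehicle mean, among 11263 genes with a mean of at least 100 normalised counts. For SLC1A3 they were FGF7, a fibroblast growth factor gene (difference 0.104), and FAM111B (0.130). FGF7 had log2 fold changes of -0.20, -0.92 and -2.41 from the low to the high dose. TNFRSF19 (0.0896), a receptor gene of the TNF receptor family, and PPP2R2B (0.109), a regulatory subunit gene of protein phosphatase 2A, were closest to NES. The log2 fold change of TNFRSF19 was -0.24, -0.74 and -1.66 from low to high. NRP1 (0.0330), which encodes the co-receptor neuropilin 1, and NONO (0.0347) were closest to CD44. MYO1C (0.0285) and THADA (0.0334) were closest to VIM, and TMCO1 (0.0514) and TNRC6B (0.0537) to SOX9. These are descriptions over 12 libraries that share the same doses.

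The label of the line was then set against further markers, in lists written from general knowledge but with earlier results of these data known. Of 20 other genes enriched in mature astrocytes, 10 were detected. GJA1, which encodes the gap junction protein connexin 43, had a mean of 4531 normalised counts, CLU (clusterin) 2311 and GLUL, the glutamine synthetase gene, 1267. SLC1A2, the gene of the other main astrocyte glutamate transporter, had 6.14, KCNJ10, a potassium channel gene, 2.21, and GJB6, the connexin 30 gene, 0.171, while SLC7A10 was at 0 in all libraries. All 23 listed genes of the mesenchymal glioma state were detected, with FN1 (fibronectin) at a mean of 110445 normalised counts, TGFBI at 82348 and CHI3L1 at 26866. Among 24 progenitor and glial lineage genes 16 were detected, led by NOTCH2 and NFIX, whereas FABP7 and PROM1, which encodes CD133, had means under 1 and HES5 was at 0.

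Markers of other cell types were counted in the same way. All 8 fibroblast and mural cell markers were detected, COL1A1 at a mean of 50743 and COL1A2 at 31841 normalised counts. Of the other lists, 3 of 8 oligodendrocyte lineage markers were detected, with SOX10 and OLIG1 at 0, 4 of 8 neuron markers, with NEUROD1 at 0, 2 of 7 microglia and leukocyte markers, 1 of 5 endothelial markers and 2 of 5 epithelial markers. The summed normalised counts of the fibroblast and mural list moved with dose. They were 119072 to 123882 with vehicle and 108271 to 117281 with the low dose. With the medium dose they were 85848 to 93053 and with the high dose 32487 to 35045. Of the 8 genes of this list, all tested, 5 were DEGs and lower with the high dose. Among all genes tested 9.57% were lower and 8.66% higher DEGs, which is the background for the DEGs named below as well. The sums of the other lists were 4548 to 4819 with vehicle and 3894 to 3935 with the high dose for oligodendrocyte markers, 3635 to 3813 and 2051 to 2086 for neuron markers, 341 to 353 and 103 to 144 for microglia and leukocyte markers, 45.6 to 48.9 and 18.0 to 41.7 for endothelial markers, and 4874 to 5078 and 1809 to 1890 for epithelial markers. These sums rest on few genes and join rises and falls. CSPG4 held most of the oligodendrocyte sum, with means of 3961 normalised counts with vehicle and 3410 with the high dose. With the high dose OLIG2 and MBP were DEGs and higher, OLIG2 without being among the 3 detected, and PDGFRA was a DEG and lower. Among the neuron markers TUBB3 and SNAP25 were DEGs and lower, MAP2 was a DEG and higher (181 to 322), and SYT1 was at 0.44 on the log2 scale, short of the fold threshold; these genes were named after their values were seen. The part of these markers in the falls of SLC1A3 and NES was not tested.

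With the high dose 2 of the 20 mature astrocyte genes were DEGs, both lower. Of the 20, 16 were tested, and among all genes tested 9.57% were lower DEGs. This share, the 8.66% of higher DEGs and the 18.2% in all are the background for the counts in each list that follows. These shares are over genes tested, whereas a list can hold genes that were not tested. The genes tested with the high dose were 19 of 24 for progenitors, 23 of 23 for the mesenchymal state and 12 of 16 for reactive astrocytes. They were 9 of 12 for filaments, 10 of 16 for SOX, 17 of 17 for hyaluronan and 20 of 25 for paralogs. The median log2 fold change of the 10 detected mature astrocyte genes was -0.27, against 0.0023 over all detected genes. SLC4A4, which encodes a sodium bicarbonate cotransporter, fell from 748 ± 26.0 to 289 ± 6.37 normalised counts (SD, n = 3; log2 fold change -1.37, SE 0.0819, adjusted p 1.64e-61 by DESeq2). ALDOC, the gene of the brain aldolase, fell from 134 ± 8.78 to 76.4 ± 9.12 (-0.82, SE 0.175, adjusted p 1.18e-05 by DESeq2); 11.3% of its exon bases are shared with a gene on the opposite strand. With the medium dose 0 of the 20 were DEGs in DESeq2, with 4 at an unadjusted p under 0.05 and 0 called by edgeR, and there SLC4A4 was at -0.48 on the log2 scale (adjusted p 2.51e-09 by DESeq2), short of the fold threshold.

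Of the 24 progenitor and glial lineage genes, 3 rose and 3 fell as DEGs with the high dose, where 8.66% of all genes tested rose and 9.57% fell as DEGs, with a median log2 fold change of -0.04 over the 16 detected. HEY1, a Notch target gene, rose from 162 ± 9.45 to 296 ± 14.3 normalised counts (0.86, SE 0.131, adjusted p 2.50e-10 by DESeq2). ZEB1, a transcription factor gene of mesenchymal transition, rose from 1350 ± 30.9 to 2288 ± 32.6 (0.76, SE 0.0487, adjusted p 1.16e-53 by DESeq2). SALL2, a transcription factor gene of glioma stem cells, fell from 146 ± 13.8 to 26.9 ± 1.91 (-2.44, SE 0.221, adjusted p 3.18e-27 by DESeq2), to 18.4% of vehicle (95% confidence interval 13.7% to 24.9%). MSI2, an RNA-binding protein gene, fell from 1199 ± 30.6 to 697 ± 13.4 (-0.78, SE 0.0592, adjusted p 1.94e-38 by DESeq2). The other 2 DEGs, ID4 (lower) and OLIG2 (higher), lay under the naming limit and were named after their values were seen. OLIG2 held 5 counts over the 3 vehicle libraries and 74 over the 3 high dose libraries. Its mean over all libraries was under the minimum for detection, so it was not among the 16 detected genes or in their median. With the medium dose 0 of the 24 were DEGs in DESeq2, with 8 at an unadjusted p under 0.05, and edgeR called 1.

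The 23 genes of the mesenchymal state had a median log2 fold change of -0.01 with the high dose, with 3 DEGs higher and 2 lower. CEBPB, the gene of a transcription factor of this state, rose from 698 ± 110 to 1915 ± 222 normalised counts (1.46, SE 0.162, adjusted p 2.55e-18 by DESeq2), and was the 1 DEG of the list with the medium dose (0.73, adjusted p 7.77e-05 by DESeq2). BHLHE40, also a transcription factor gene, rose from 3344 ± 24.2 to 6696 ± 134 (1.00, SE 0.0307, adjusted p 1.27e-231 by DESeq2). CEBPB and BHLHE40 share 12.6% and 12.8% of their exon bases with antisense genes. CAV1, which encodes the membrane protein caveolin 1, fell from 16528 ± 360 to 8091 ± 242 (-1.03, SE 0.0286, adjusted p 6.81e-281 by DESeq2), and S100A10 from 3130 ± 38.3 to 1986 ± 85.1 (-0.66, SE 0.0441, adjusted p 6.33e-49 by DESeq2). CHI3L1 and FN1 were at 0.04 and -0.01 on the log2 scale (adjusted p 0.292 and 0.829 by DESeq2).

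Of the 16 reactive astrocyte genes, 9 were detected. PTX3, which encodes pentraxin 3, rose from 799 ± 14.1 with vehicle to 1685 ± 50.1 with the medium dose (1.07, SE 0.0514, adjusted p 1.27e-94 by DESeq2) and 4838 ± 123 with the high dose (2.60, SE 0.0486, with an adjusted p too small for DESeq2 to represent). HSPB1, a small heat shock protein gene, fell from 5897 ± 623 to 3188 ± 108 with the high dose (-0.89, SE 0.0541, adjusted p 7.28e-59 by DESeq2). The third DEG, LCN2, went from 1.32 ± 0.635 to 8.78 ± 3.13 normalised counts, few in every library, and was named after its values were seen. In edgeR 2 genes of the list were called with the high dose, against 3 in DESeq2. The median of the list was -0.05 with the high dose.

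The other genes of intermediate filaments and their partners had a median log2 fold change of -0.44 over 8 detected of 12, with 1 DEG higher and 3 lower with the high dose. LMNB1 (lamin B1, of the nuclear lamina) fell from 1823 ± 47.6 to 595 ± 12.7 (-1.62, SE 0.0550, adjusted p 3.58e-188 by DESeq2). SYNM (synemin, which assembles with vimentin) fell from 256 ± 17.5 to 124 ± 9.94 (-1.04, SE 0.135, adjusted p 1.12e-13 by DESeq2), with 27.8% of its exon bases shared with SYNM-AS2. NEFL, of neurofilaments, and PRPH (peripherin) were the other DEGs, named after their values were seen. NEFL went from 126 ± 17.7 to 44.1 ± 5.30 normalised counts and was also a DEG with the medium dose (-0.80, adjusted p 0.000461 by DESeq2), while PRPH went from 2.84 ± 1.34 to 30.7 ± 7.41. PRPH, the 1 higher DEG, had means of 4.72 with the low dose and 10.6 with the medium dose. Its overall mean passed the minimum for detection only through the high dose group. Thus SYNM and NES fell with the high dose, where VIM rose.

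Among 16 other SOX genes 4 were DEGs with the high dose, all lower, where 9.57% of all genes tested were lower DEGs. Of the 16, 10 were tested with the high dose and 6 were detected. SOX4, a transcription factor gene of progenitors, fell from 1996 ± 29.5 to 841 ± 50.7 normalised counts (-1.25, SE 0.0543, adjusted p 1.03e-115 by DESeq2). SOX7 fell from 406 ± 53.3 to 181 ± 1.33 (-1.16, SE 0.116, adjusted p 1.27e-22 by DESeq2), and 39.4% of its exon bases are shared with PINX1 on the same strand. SOX5 and SOX18, named after their values were seen, were the other DEGs; SOX18 went from 74 counts over the 3 vehicle libraries to 1 count over the 3 high dose libraries, and its overall mean of 10.6 normalised counts passed the minimum only through the vehicle and low dose groups. With the medium dose 0 of the 16 were DEGs in DESeq2, with 3 at an unadjusted p under 0.05, and edgeR called 1.

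Of 17 genes of hyaluronan metabolism and CD44 partners, 15 were detected, and with the high dose 2 were DEGs and higher and 4 lower. The median log2 fold change over the 15 was -0.38. HAS3, a hyaluronan synthase gene, fell from 694 ± 21.3 with vehicle to 478 ± 44.4 with the low dose, 370 ± 32.1 with the medium dose and 220 ± 16.4 with the high dose. Its log2 fold change with the high dose was -1.66 (SE 0.101, adjusted p 7.03e-60 by DESeq2), and with the medium dose -0.91 (SE 0.0942, adjusted p 2.90e-20 by DESeq2). With the low dose it was -0.54 (SE 0.0919, adjusted p 1.14e-06 by DESeq2), just short of the fold threshold. CEMIP2, which encodes a surface hyaluronidase, fell from 2481 ± 39.8 to 1052 ± 73.8 with the high dose (-1.24, SE 0.0517, adjusted p 1.01e-125 by DESeq2). MMP14, the gene of a membrane metalloproteinase that can cleave CD44, rose from 14495 ± 250 to 21937 ± 545 (0.60, SE 0.0273, adjusted p 1.71e-104 by DESeq2). HAS2, another synthase gene, was at 0.44 on the log2 scale (adjusted p 9.98e-11 by DESeq2), short of the fold threshold, so the 2 detected synthases differed in direction.

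With the low dose 0 genes of each of these 8 lists were DEGs in DESeq2 and 0 in edgeR, and between 0 and 9 genes of a list had an unadjusted p under 0.05 in DESeq2. The paralogs of the members, described next, are among the 8 lists.

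**Figure D4:**
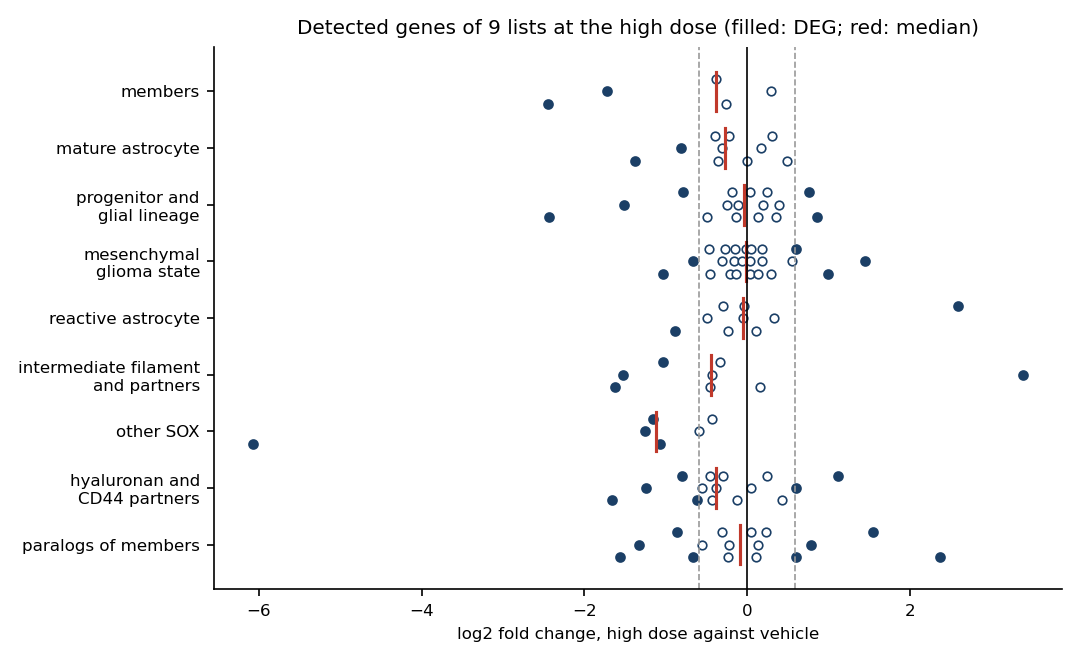
Log2 fold change with the high dose against vehicle of the detected genes in 9 lists; each point is a gene, filled where it was a DEG, red bars are list medians and dashed lines mark a 1.5-fold change. The 10 members show 2 DEGs, both lower, the other SOX genes include 4 DEGs, all lower, and the mesenchymal list centres on 0; the point far to the left is SOX18, which had 1 count with the high dose.

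Paralogs of the members were compared to see whether related genes moved with them. Of 25 paralogs 16 were detected and 20 were tested with the high dose. At that dose 4 rose and 4 fell as DEGs, where 18.2% of all genes tested were DEGs. SLC1A4 (ENSG00000115902, chromosome 2, 64988477 to 65023865), which encodes the neutral amino acid transporter ASCT1, rose as its relative SLC1A3 fell. Its normalised counts were 592 to 616 with vehicle, 650 to 705 with the low dose, 1209 to 1313 with the medium dose and 1649 to 1830 with the high dose. The groups did not overlap, and the log2 fold change was 1.54 with the high dose (SE 0.0631, adjusted p 2.24e-130 by DESeq2) and 1.08 with the medium dose (SE 0.0643, adjusted p 5.17e-61 by DESeq2). SLC1A5, the gene of the glutamine transporter ASCT2 and named after its values were seen, rose from 5576 to 5990 normalised counts with vehicle to 9500 to 10325 with the high dose (0.79, SE 0.0343, adjusted p 7.33e-115 by DESeq2). It was a DEG with the medium dose too (0.61, SE 0.0345, adjusted p 1.14e-67 by DESeq2). SLC1A1, which encodes the glutamate transporter EAAT3 and was also named after its values were seen, had 959 to 1051 normalised counts with vehicle and 633 to 740 with the high dose. Its log2 fold change of -0.55 (SE 0.0717, adjusted p 9.07e-14 by DESeq2) was short of the fold threshold. Within the family, the 2 detected glutamate transporter genes were thus lower and the 2 detected neutral amino acid transporter genes higher with the high dose.

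ALDH1L2 (ENSG00000136010, chromosome 12, 105019784 to 105107643), the mitochondrial counterpart of ALDH1L1 in folate metabolism, was detected although ALDH1L1 was not. It had 359 to 403 normalised counts with vehicle, 488 to 549 with the low dose, 1243 to 1344 with the medium dose and 1926 to 2083 with the high dose, with no overlap between groups. The log2 fold change was 2.37 with the high dose (SE 0.0690, adjusted p 9.42e-257 by DESeq2), 1.75 with the medium dose (SE 0.0704, adjusted p 3.69e-133 by DESeq2) and 0.44 with the low dose (SE 0.0759, adjusted p 1.54e-06 by DESeq2), the last under the fold threshold. Of the aquaporins, AQP1, AQP3 and AQP11 were detected, and with the high dose AQP3 was lower (-1.56, adjusted p 0.00132 by DESeq2) and AQP11 higher (0.61, adjusted p 0.00963 by DESeq2); both were named after their values were seen. Among the S100 paralogs, S100A10, S100A3 and S100A4 were DEGs and lower, with log2 fold changes of -0.66, -0.86 and -1.32, of which the last 2 genes were named after their values were seen.

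**Figure D5:**
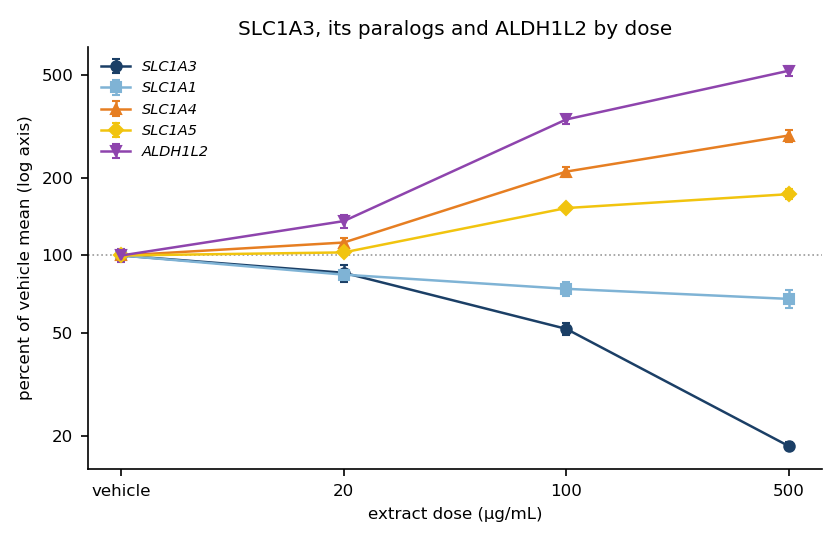
Mean normalised count of SLC1A3, its paralogs SLC1A1, SLC1A4 and SLC1A5, and of ALDH1L2, as percent of the vehicle mean on a log axis, against extract dose (µg/mL); error bars are the SD over n = 3 libraries. SLC1A3 ends at 18.3% of vehicle and SLC1A1 below 100%, whereas SLC1A5 (173%), SLC1A4 (292%) and ALDH1L2 (518%) end above it.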

How the data were processed

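SW1783 RNA was made by the authors into directional mRNA libraries, and the submitters' processing notes name FastQC 0.11.9, Trim Galore 0.6.5, STAR 2.7.3a, RSEM 1.3.3 and the GRCh38 build; the methods of the study give other versions of Trim Galore and STAR. Poly(A) selection and the use of strand in counting are not stated. The deposited values are RSEM expected counts per gene, which share ambiguous reads among genes; 8.75% were not whole, and all were rounded. Groups came from titles. Symbols, lengths and coordinates came from GENCODE v44, which held 56558 of the 60675 IDs.

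All 12 libraries were fitted in R 4.3.3 with DESeq2 1.42.0 (group as the term, two-sided Wald test, Benjamini-Hochberg adjustment over all genes, independent filtering at 0.05), after the test the authors name; edgeR 4.0.16 was an alternative. Genes with means below 263 (low dose), 18.3 (medium dose) and 1.72 (high dose) got no adjusted p from that filter. The fit was also run on simulated counts, drawn with the vehicle means and the dispersions of the fit to these data. Replicate pairs differed by more than counting noise (chi-square per degree of freedom 1.99 to 3.55). The labels name no batch. The deviations of same-numbered low and medium dose libraries went together (r from 0.124 to 0.193 over 3 pairs), so a fit with the replicate number as a block was taken as paired for that comparison; the pairing comes from the data and not from the labels. In each list of further genes, the 2 largest rises and falls among high dose DEGs with a mean of at least 100 were named, and for each detected member the 2 genes with the closest profile; exon overlap is stated where it exceeds 10%. The members and lists were chosen with earlier results of these data known. The values of some listed genes are not reported here.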

Additional observations from a re-analysis of the deposited data

How the results depend on the processing

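The fits were repeated with edgeR, other size factors, other filters, a replicate block, other thresholds and each library left out. Of 547 values for single genes under an alternative, 527 kept their direction and their side of the threshold. By the adjusted p alone, 5 of the 10 genes were called with the high dose, 5 with the medium dose, 2 with the low dose and 5 between the medium and low doses. Of all genes tested, 46.5%, 29.5% and 3.29% were called by that rule with the high, medium and low doses. The share between the medium and low doses is not given, so that count is not set against other genes. Tested against the 1.5-fold threshold itself, 1 gene (SLC1A3) was called with the medium dose and 1 between the high and medium doses, and 0 between the medium and low doses, since NES in the first 2 and SLC1A3 in the last did not exceed that fold beyond error. Shares over all genes are not given for that test either. Per kilobase of the longest coding transcript in place of all exons, the log2 ratio of SLC1A3 to NES was 2.00, against -0.24. SOX9 changed sign in 2 comparisons where it was not called: with the low dose against vehicle it ranged from -0.0083 (without low dose replicate 1) to 0.054 when a library was left out, and between the high and medium doses from -0.065 to 0.0076 (without high dose replicate 2; 0.0032 without medium dose replicate 2). With the replicate number as a block, 2 of the genes were DEGs with the high dose, 2 with the medium dose and 1 (SLC1A3) between the medium and low doses, as without it, and it changed no other call on them. In no comparison but medium against low were all 3 pairs of same-numbered libraries correlated over 0.1 (r from -0.118 to 0.221 over 18 pairs, 5 of them over 0.1), so elsewhere the numbers were not taken to pair the libraries. Depth limits GFAP, S100B, SOX2, ALDH1L1 and AQP4, in which no change was detectable.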
